A study of Mus musculus with 7 samples.

Results

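The haemoglobin and erythroid genes described here are Hba-a1, Hba-a2, Hbb-bs, Hbb-bt and Alas2, chosen by symbol from the gene count matrix of a mouse tumour study. All 5 symbols were found among the 21878 rows of the matrix, and all 5 passed the filter on low counts that left 12997 genes for testing. The tumours were grafts of B16F10, a pigmented melanoma cell line from C57BL/6 mice, grown in female C57BL/6J mice that keep their own blood, vessels and immune cells. The labels describe 3 tumours as control (NC) without naming a vehicle, and 4 tumours as Zelnorm, an oral dose of 1.25 mg/kg given every 2 days. The name Zelnorm stands for tegaserod, which partially activates the serotonin receptor 5-HT4. The ages of the mice, pooling of animals and the day of collection are not stated, and neither is whether each library came from its own mouse. P-values therefore measure the spread between these libraries, which may be partly technical.

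Haemoglobin carries oxygen in red blood cells and is built from alpha chains and beta chains, each holding a haem group. Mammalian red cells lose their nucleus late in maturation, and the youngest circulating cells, the reticulocytes, still hold large amounts of globin messenger RNA made in the bone marrow or spleen. Alas2 encodes the erythroid form of 5-aminolevulinate synthase, the first enzyme of haem synthesis, while Alas1 encodes the form used by other cells. In a piece of tumour, transcripts of these genes are commonly read as a trace of the blood it contained. In bulk tissue, fewer red cells and less RNA per red cell cannot be told apart.

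Hba-a1 (GRCm38 chromosome 11, 32283672 to 32284486) and Hba-a2 (chromosome 11, 32296492 to 32297310) are the adult alpha-globin genes. Hbb-bs (chromosome 7, 103826523 to 103827928) and Hbb-bt (chromosome 7, 103812524 to 103813923) are the adult beta-globin genes of the C57BL/6 strain. Alas2 lies on chromosome X, 150547417 to 150570622. The sequences just upstream of these genes are shown because the globin genes and Alas2 are switched on together in red cell precursors by shared factors. They are the 250 bases before each start site, 5′ to 3′ on the strand of the gene, from RefSeq on GRCm38.p6. Capitals mark matches, on either strand, to GATAA (the core bound by GATA factors), CACCC (the core bound by Krüppel-like factors), CCAAT and TATAA. In Alas2 both TATAA matches, 1 per strand, overlap each other.
Hba-a1, chr11:32283422-32283671, plus strand: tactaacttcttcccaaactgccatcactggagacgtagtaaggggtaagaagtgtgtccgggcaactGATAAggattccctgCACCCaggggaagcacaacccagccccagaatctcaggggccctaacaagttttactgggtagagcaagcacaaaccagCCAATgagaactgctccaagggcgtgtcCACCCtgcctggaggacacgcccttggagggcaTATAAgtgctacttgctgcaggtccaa
Hbb-bs, chr7:103827929-103828178, minus strand: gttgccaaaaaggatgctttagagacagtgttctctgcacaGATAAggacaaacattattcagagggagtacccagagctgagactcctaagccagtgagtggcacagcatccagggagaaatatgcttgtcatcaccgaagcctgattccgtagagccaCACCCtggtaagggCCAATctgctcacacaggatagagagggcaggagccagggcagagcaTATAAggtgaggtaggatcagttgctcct
Hbb-bt, chr7:103813924-103814173, minus strand: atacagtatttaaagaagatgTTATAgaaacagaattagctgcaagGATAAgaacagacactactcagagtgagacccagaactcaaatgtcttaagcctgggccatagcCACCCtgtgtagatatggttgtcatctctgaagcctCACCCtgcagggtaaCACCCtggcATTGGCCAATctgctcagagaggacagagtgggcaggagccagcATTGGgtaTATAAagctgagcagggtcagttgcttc
Alas2, chrX:150547167-150547416, plus strand: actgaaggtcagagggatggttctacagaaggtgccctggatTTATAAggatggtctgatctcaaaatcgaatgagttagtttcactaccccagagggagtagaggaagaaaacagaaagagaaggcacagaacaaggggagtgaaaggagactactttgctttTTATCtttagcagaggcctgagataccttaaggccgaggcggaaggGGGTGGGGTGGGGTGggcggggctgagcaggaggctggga

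Each of the 5 windows held 1 match to GATAA. The GATAA match began 182 bases before the start in Hba-a1, 209 in Hbb-bs, 204 in Hbb-bt and 86, on the opposite strand, in Alas2. CACCC matched 2 times in Hba-a1, 1 time in Hbb-bs, 3 times in Hbb-bt and 3 times in Alas2. The 4 globin genes held a CCAAT match, which Alas2 lacked in this window, and a TATAA match between 27 and 30 bases before the start. Over 32851 upstream windows of the same length, 22.6% held GATAA, 52.0% CACCC, 33.8% CCAAT, 22.8% TATAA and 0.968% held every one of them on either strand. The matches are a description of the letters and not evidence of binding.

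The window of Hba-a2 (chr11:32296242-32296491) is not printed because it repeats that of Hba-a1, with 247 of 247 aligned bases identical. Their longest coding transcripts in GENCODE M21 shared 537 of 538 aligned bases. Of all stretches of 100 bases, 56.5% of those in the Hba-a1 transcript and 74.5% of those in Hba-a2 occurred unaltered in the other. The beta pair was less alike, with 178 of 243 aligned bases identical upstream and 580 of 626 in the transcript, and the shared stretches of 100 bases came to 62.6% of Hbb-bs and 54.8% of Hbb-bt. The sources used here do not say how the authors' counting treated reads that fit both copies, so the split of counts within each pair is uncertain. Alas2 overlaps Apex2, which lies on the opposite strand, and the strand setting of the counting is not given either. Apex2 was at 6.03 ± 0.372 CPM in controls and 7.42 ± 1.41 with Zelnorm (SD, n = 3 and 4), a difference in the other direction from Alas2. Whether the overlap affected the Alas2 counts was not tested.

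The libraries held between 16903598 and 19666598 counts, and 3 counts, taken as the floor of detection, came to between 0.152 and 0.178 CPM (counts scaled to the TMM-adjusted size of the library). The floor covers counting error only. Libraries carry their column names, in which NC marks controls (NC_5, NC_6, NC_10) and MBZ marks Zelnorm (MBZ_9, MBZ_11, MBZ_13, MBZ_15). All 10 pigment cell markers were tested, and their summed level was 26100 to 29600 CPM in NC and 28300 to 30600 CPM in Zelnorm libraries. NC_5, MBZ_11 and MBZ_15 held the most skeletal muscle transcripts, with 100, 219 and 473 CPM over 15 marker genes against 56.3 to 75.2 in the others. Results are therefore also given without them.

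All 5 genes were lower in Zelnorm tumours, as were 49.8% of all genes tested, by between 20.9% (Hbb-bs) and 52.4% (Hba-a2), and none passed the test across all genes. With edgeR's quasi-likelihood test and Benjamini-Hochberg adjustment over 12997 genes, 0 of 5 members were called at an adjusted p under 0.05, where 0% of all tested genes were called lower and 0.0308% in either direction. At an unadjusted edgeR p under 0.05, 3 members were lower (Hba-a2, Alas2 and Hbb-bt), where 3.38% of all tested genes were. DESeq2 called 1 member, Hba-a2, where it called 0.29% of its tested genes lower, and limma voom called 0. In 2 members, Hba-a2 and Alas2, every Zelnorm library lay below every NC library, an arrangement seen in 4.27% of all tested genes. The median log2 fold change of the 5 members was -0.59, beside 0.00036 over all genes tested. Even the smallest difference among the members, that of Hbb-bs, was reached or passed on the lower side by 2.45% of tested genes. The members rose and fell together over the 7 libraries. Pearson correlation of log2 CPM between pairs ran from 0.757 (Hba-a2 with Hbb-bs) to 0.983 (Hba-a1 with Hbb-bt). The 5 members are therefore not 5 separate observations.

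**Figure D1:**
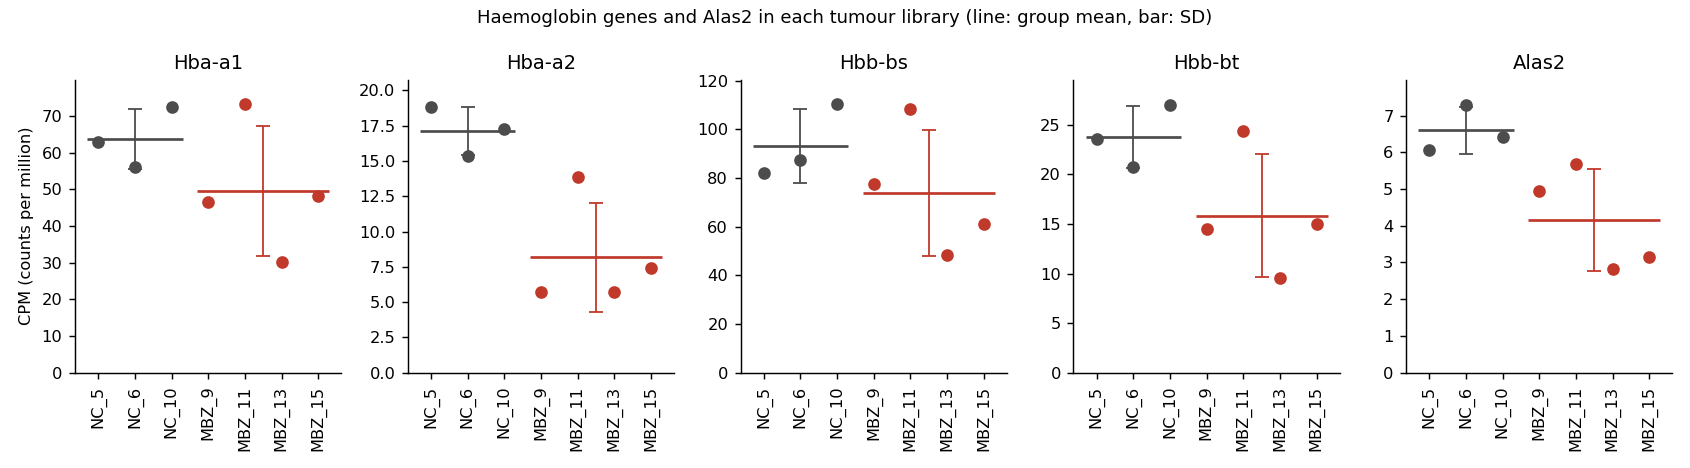
CPM of each haemoglobin gene and of Alas2 in the 3 NC libraries (grey) and the 4 Zelnorm libraries (red), 1 point per library, with the group mean as a line and the SD as a bar. MBZ_11 sits with the NC libraries in Hba-a1, Hbb-bs and Hbb-bt, whereas in Hba-a2 and Alas2 all Zelnorm points lie below all NC points.

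Hba-a2 showed the largest difference of the 5 genes. It had 18.8 CPM in NC_5, 15.4 in NC_6 and 17.2 in NC_10, against 5.70 in MBZ_9, 13.9 in MBZ_11, 5.74 in MBZ_13 and 7.42 in MBZ_15. The groups did not overlap, and MBZ_11 lay closer to the lowest control than to the other Zelnorm libraries. Group means were 17.1 ± 1.71 CPM in NC and 8.18 ± 3.87 in Zelnorm tumours (SD, n = 3 and 4). The log2 fold change was -1.07 ± 0.27 (SE, edgeR adjusted p = 0.197), with a 95% interval from -1.66 to -0.48. Without MBZ_11 it was -1.45 and passed the threshold (edgeR adjusted p = 0.0239), and DESeq2 on all libraries gave -1.08 (DESeq2 adjusted p = 0.00553). Over the other edgeR and voom fits of single rows the adjusted p ran from 0.118 to 0.561.

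Hba-a1, the more abundant alpha-globin row, differed less. Its level was 63.0 CPM in NC_5, 56.03 in NC_6 and 72.5 in NC_10, and 46.5 in MBZ_9, 73.3 in MBZ_11, 30.3 in MBZ_13 and 48.2 in MBZ_15. MBZ_11 had the highest value of all 7 libraries, while the other 3 Zelnorm libraries were below every control. On the log2 scale the difference was -0.37 ± 0.22 (SE, edgeR adjusted p = 0.623), with a 95% interval from -0.86 to 0.13. It was -0.62 without MBZ_11 and -0.19 without MBZ_13. With both alpha-globin rows added into 1 row, a choice made after seeing the data, the log2 fold change of alpha-globin was -0.49, against -1.07 for the Hba-a2 row.

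Hbb-bs was the most abundant member. It stood at 82.1 CPM in NC_5, 87.3 in NC_6 and 110.5 in NC_10, and at 77.5 in MBZ_9, 108.6 in MBZ_11, 48.3 in MBZ_13 and 61.1 in MBZ_15. Again MBZ_11 reached the level of the highest control and the other 3 Zelnorm libraries lay below all controls. Its log2 fold change was -0.34 ± 0.22 (SE, edgeR adjusted p = 0.654), with a 95% interval from -0.83 to 0.16, and it was -0.20 without NC_10, -0.18 without MBZ_13 and -0.59 without MBZ_11.

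Hbb-bt, the second beta-globin row, had a wider gap between groups. Its level was 23.6 CPM in NC_5, 20.7 in NC_6 and 27.0 in NC_10, and 14.5 in MBZ_9, 24.3 in MBZ_11, 9.57 in MBZ_13 and 14.98 in MBZ_15. The groups overlapped through MBZ_11 alone, which lay between NC_5 and NC_10. The log2 fold change was -0.59 ± 0.24 (SE, edgeR adjusted p = 0.437), with a 95% interval from -1.12 to -0.06. With the beta-globin rows added into 1 row the log2 fold change was -0.39.

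Alas2, the erythroid enzyme, was the least abundant member and came from another chromosome with no near-identical copy among the members. It was counted 112, 131 and 127 times in NC_5, NC_6 and NC_10, and 86, 96, 50 and 62 times in MBZ_9, MBZ_11, MBZ_13 and MBZ_15. These counts correspond to 6.07, 7.30 and 6.42 CPM in the controls and to 4.95, 5.69, 2.81 and 3.15 CPM in the Zelnorm libraries, which did not overlap. The log2 fold change was -0.67 ± 0.24 (SE, edgeR adjusted p = 0.373), with a 95% interval from -1.21 to -0.13.

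The spread between libraries was wider in the Zelnorm group for every member. The SD was 9.59% to 16.2% of the mean in NC and 33.5% to 47.3% in Zelnorm tumours. MBZ_13 had the lowest level of 4 members and the second lowest of Hba-a2, where MBZ_9 was marginally lower. MBZ_11 had the highest level of all 5 members within the Zelnorm group. In the controls NC_10 was highest in Hba-a1, Hbb-bs and Hbb-bt, NC_5 in Hba-a2 and NC_6 in Alas2.

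Set per kilobase of the longest coding transcript, which adjusts for length but not for reads shared between copies, Hbb-bs led in both groups. Its level was 149 ± 24.1 CPM per kilobase in NC and 118 ± 41.5 in Zelnorm tumours (SD, n = 3 and 4). Hba-a1 followed with 91.3 ± 11.8 and 70.9 ± 25.4, then Hbb-bt with 33.8 ± 4.48 and 22.6 ± 8.77, Hba-a2 with 30.9 ± 3.09 and 14.8 ± 6.99, and Alas2 with 3.24 ± 0.311 and 2.04 ± 0.681 CPM per kilobase. Hbb-bt and Hba-a2, neighbours in this order, differed by less than the larger of their SDs in each group. The order of the copies within a pair depends on the split of shared reads. If such reads were left out, the globin levels beside each other and beside Alas2 would be affected as well.

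The 4 haemoglobin rows together took between 0.00949% and 0.0230% of all counts, that is 3461, 3221 and 4493 counts in NC_5, NC_6 and NC_10 and 2506, 3716, 1669 and 2592 counts in MBZ_9, MBZ_11, MBZ_13 and MBZ_15. The sum was 198 ± 25.6 CPM in NC and 148 ± 52.9 CPM in Zelnorm tumours (SD, n = 3 and 4). With 220 CPM, MBZ_11 lay inside the range of the controls, 179 to 227 CPM, and the remaining Zelnorm libraries lay between 93.9 and 144 CPM.

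Proportions among the members within a library do not depend on library size. Hba-a2 made up 23.0%, 21.5% and 19.2% of alpha-globin counts in NC_5, NC_6 and NC_10, and 10.9%, 15.9%, 15.9% and 13.3% in MBZ_9, MBZ_11, MBZ_13 and MBZ_15. The groups did not overlap, and MBZ_11, whose total haemoglobin lay within the range of the controls, was among the low ones. How reads that fit both copies were counted is not stated. The share of Hba-a2, and that of Hbb-bt below, may therefore not be the share of the transcripts themselves. The log2 ratio of Hba-a2 to Hba-a1 was -1.89 ± 0.17 in NC and -2.63 ± 0.30 in Zelnorm libraries (SD, n = 3 and 4), a difference of -0.74 (2-sided p = 0.0286 in an exact permutation test, the lowest value possible with 35 splits). Adjusted over the 4 ratios compared, the permutation p was 0.114 and did not pass 0.05. With the other ratios as they were, it could not have been lower at any size of this difference. The adjusted value therefore decides nothing. These ratios were chosen after seeing the data.

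The other 3 ratios overlapped between groups. Hbb-bt made up 20.4% ± 1.68 of beta-globin counts in NC and 17.6% ± 1.78 in Zelnorm libraries (SD, n = 3 and 4; exact permutation test of the log2 ratio, 2-sided p = 0.143, adjusted 0.286). Alpha-globin took 41.0% ± 2.31 and 39.1% ± 2.53 of haemoglobin counts (exact permutation p = 0.343, adjusted 0.343). Per 1000 haemoglobin counts there were 33.8 ± 6.32 counts of Alas2 in NC and 28.5 ± 4.62 in Zelnorm libraries (exact permutation p = 0.257, adjusted 0.343). None of these 3 tests passed 0.05, which does not show that the proportions are equal.

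**Figure D2:**
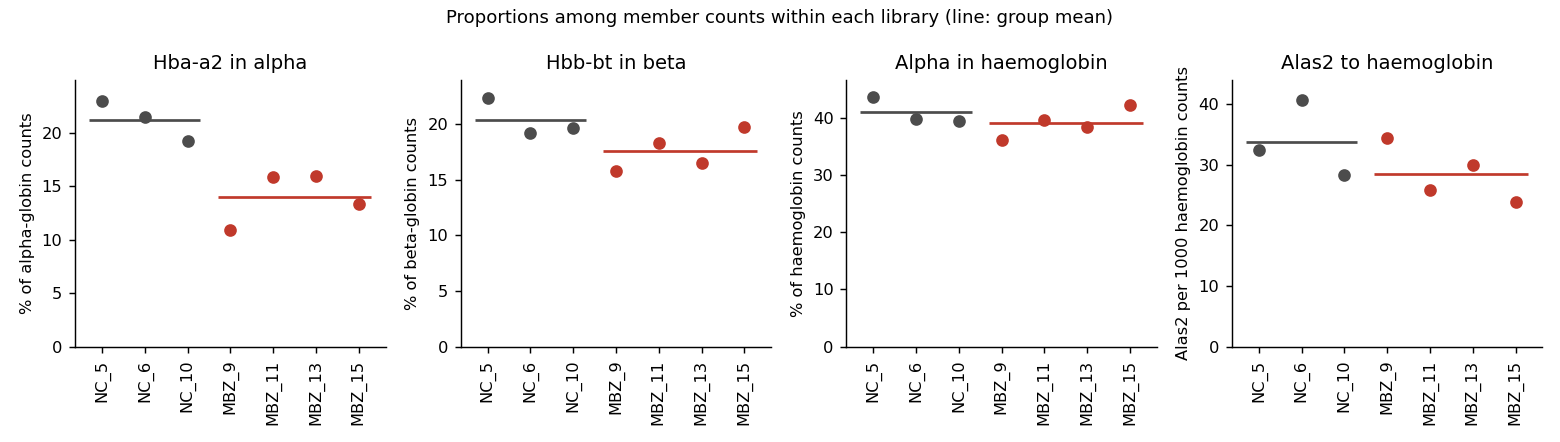
Share of Hba-a2 in alpha-globin counts, of Hbb-bt in beta-globin counts and of alpha-globin in haemoglobin counts (%), and Alas2 counts per 1000 haemoglobin counts, 1 point per library (NC grey, Zelnorm red) with the group mean as a line. The share of Hba-a2 is 19.2% to 23.0% in NC and 10.9% to 15.9% in Zelnorm libraries, while the other panels overlap.

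The embryonic globin genes of the matrix, and Hbq1a and Hbq1b, were absent or at the limit of detection. Hba-x, Hbb-bh1, Hbb-bh2 and Hbb-y, the embryonic alpha-like and beta-like genes, had 0 counts in all 7 libraries, which allows a level of up to 0.152 to 0.178 CPM by library. Hbq1a and Hbq1b, the theta genes of the alpha cluster, had at most 1 count. Cygb, which encodes cytoglobin, was at 11.1 ± 3.13 CPM in controls and 9.83 ± 1.77 with Zelnorm (log2 fold change -0.17 ± 0.20, edgeR adjusted p = 0.817, and 0.08 without NC_10).

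Other red cell genes ranged from undetected to abundant. Of 36 listed genes of the red cell membrane and late red cell maturation, 35 were in the matrix, 22 were tested, and 9 had at most 3 counts in every library. Kel, Cldn13, Car1, Trim58 and Slc38a5 had 0 counts throughout, while the whole list, with its genes that other cells use as well, summed to 1960 to 2190 CPM in controls and 2000 to 2150 CPM with Zelnorm.

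The 22 tested genes of that list showed no common direction. Of these, 11 were higher and 11 lower, 0 were called (edgeR), and the median log2 fold change was -0.02. At an unadjusted edgeR p under 0.05, 3 were higher and 3 lower, beside 6.94% and 3.38% of all tested genes. The most abundant ones were the transferrin receptor Tfrc, with 536 ± 79.3 CPM in NC and 498 ± 66.8 in Zelnorm tumours, the peroxiredoxin Prdx2 (303 ± 9.23 and 280 ± 7.65 CPM), the glucose transporter Slc2a1 (261 ± 6.28 and 250.3 ± 40.4 CPM) and Tmcc2 (178 ± 12.1 and 192 ± 17.1 CPM).

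Genes of haem synthesis other than Alas2 showed no common direction. All 15 listed genes were tested. Among them 7 were higher and 8 lower, 0 were called (edgeR), and the median log2 fold change was -0.0036. At an unadjusted edgeR p under 0.05, 1 was higher and 0 lower, beside 6.94% and 3.38% of all tested genes. Alas1, the general counterpart of Alas2, stood at 101.5 ± 10.5 CPM in controls and 91.5 ± 20.5 with Zelnorm (log2 fold change -0.15 ± 0.15, edgeR adjusted p = 0.798, and -0.31 without MBZ_9 and -0.04 without MBZ_15). Fech, which inserts iron into the haem ring, had 64.6 ± 3.49 and 64.6 ± 0.754 CPM. Tmem14c, a mitochondrial membrane protein gene needed for haem synthesis, had 125 ± 5.67 and 121 ± 3.08 CPM.

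Transcription factors and signalling genes of the red cell lineage were likewise without a common direction. Gata1, the master factor of the lineage, had at most 2 counts in any library, and Klf1, which activates adult beta-globin, had 8 to 10 counts in NC and 5 to 12 in Zelnorm libraries. Both were under the filter and were named after their counts were seen. Of 18 listed genes 14 were tested, with 7 higher, 7 lower, 0 called (edgeR) and a median log2 fold change of -0.01. At an unadjusted edgeR p under 0.05, 1 was higher and 0 lower, beside 6.94% and 3.38% of all tested genes. The cofactor gene Ldb1 stood at 169.5 ± 9.95 CPM in controls and 162 ± 4.16 with Zelnorm, Sox6 130 ± 3.77 and 120 ± 6.87, Stat5b 86.2 ± 6.23 and 93.9 ± 4.93, and the globin repressor gene Zbtb7a 67.4 ± 2.26 and 73.3 ± 2.59 CPM.

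Genes that recycle haem and iron were tested in 17 of 20 cases found in the matrix. Of these, 11 were higher and 6 lower, 0 were called (edgeR; an unadjusted p under 0.05 was reached by 4 on the higher side, as by 6.94% of all tested genes, and by 0 on the lower), and the median log2 fold change was 0.10. The ferritin genes were the most abundant, Ftl1 with 6413 ± 76.6 CPM in NC and 6575 ± 276 in Zelnorm tumours and Fth1 with 1999 ± 132 and 1985 ± 200 CPM. The haem transporter gene Slc48a1 had 207 ± 6.65 and 223 ± 13.8 CPM, and the iron transporter gene Slc11a2 had 209.5 ± 9.96 and 197 ± 9.88 CPM.

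**Figure D3:**
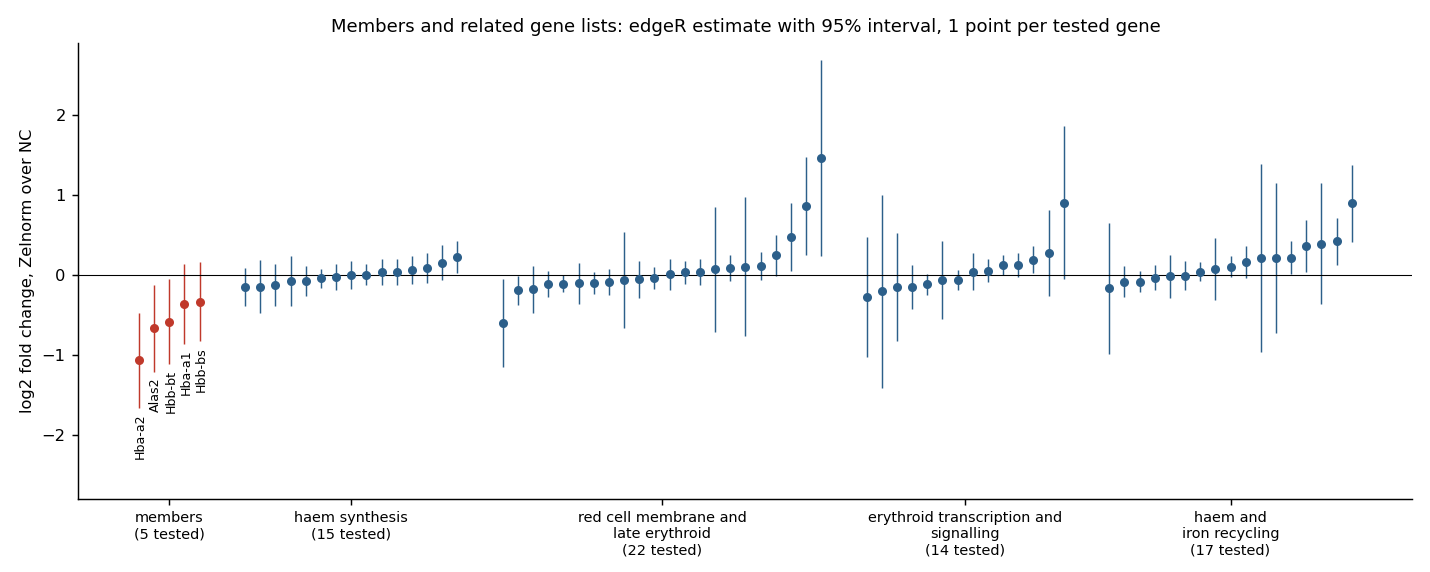
Log2 fold change of Zelnorm over NC (edgeR) with its 95% interval, 1 point per tested gene, for the 5 members (red) and 4 related lists (blue). The members lie between -1.07 and -0.34, and single genes of the other lists lie between -0.60 and 1.46.

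Marker lists of other cells in blood and tissue were read beside the members. Endothelial markers, all 15 tested, had summed levels of 686 to 780 CPM in NC and 666 to 796 in Zelnorm libraries, with 8 higher, 7 lower and a median log2 fold change of 0.02. Platelet markers were mostly scarce, with 2 of 12 tested, and 4 of 12 genes had at most 3 counts in every library. Their summed levels, mostly from Pf4, were 5.24 to 25.4 CPM in controls and 7.54 to 20.2 with Zelnorm. Neutrophil markers summed to 8.23 to 20.8 CPM and 11.8 to 24.1 CPM, with 8 of 14 tested, a median log2 fold change of 0.57 and Stfa2 at 0 throughout.

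Leukocyte and macrophage markers were higher in the group in which the members were lower. All 15 leukocyte markers were higher in Zelnorm tumours (median log2 fold change 0.67, summed level 591 to 671 CPM in NC and 650 to 907 in Zelnorm libraries), as were all 16 macrophage markers (median 0.68, 347 to 710 CPM and 683 to 989 CPM), and edgeR called 0 of either, with 9 and 10 higher at an unadjusted p under 0.05, where 6.94% of all tested genes were. Skeletal muscle markers were higher in 14 of 14 tested cases (median 2.67), from 56.3 to 100 CPM in NC and from 59.4 to 473 CPM in Zelnorm libraries. Of these, edgeR called 0, and 7 were higher at an unadjusted edgeR p under 0.05. Only MBZ_11 (219 CPM) and MBZ_15 (473 CPM) lay above the controls, while MBZ_9 (75.2 CPM) and MBZ_13 (59.4 CPM) lay within their range. MBZ_11 had the highest leukocyte and macrophage levels (907 and 989 CPM) together with the highest haemoglobin of its group, and MBZ_13 had the lowest leukocyte level of its group (650 CPM) together with the lowest haemoglobin. The part of these cells in the difference between groups was not tested.

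**Figure D4:**
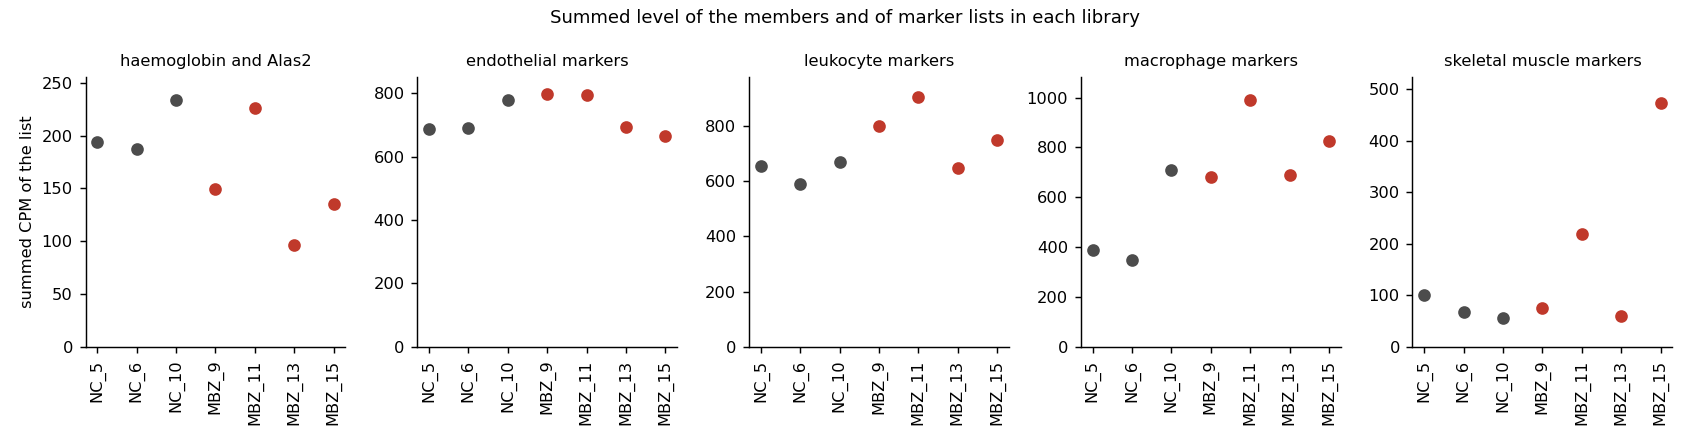
Summed CPM of the 5 members and of endothelial, leukocyte, macrophage and skeletal muscle marker lists in each library (NC grey, Zelnorm red). Members are lowest in MBZ_13 (96.7 CPM) and highest in NC_10 (234 CPM) and MBZ_11 (226 CPM), whereas muscle markers are highest in MBZ_15 (473 CPM).

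The members were also read in 3 fits that leave out libraries or add a marker level. Without NC_5, MBZ_11 and MBZ_15, the log2 fold change was -1.52 for Hba-a2, -0.995 for Hbb-bt, -0.83 for Alas2, -0.75 for Hba-a1 and -0.66 for Hbb-bs. This compares NC_6 and NC_10 with MBZ_9 and MBZ_13 only. MBZ_11 was also the Zelnorm library with the highest haemoglobin. Without MBZ_11 alone the values were already -1.45, -0.87, -0.86, -0.62 and -0.59 in the same order. The part of muscle in these larger values was not tested. With the muscle marker level as a covariate the values were -1.41, -0.87, -0.68, -0.64 and -0.44 in the same order. With the leukocyte marker level as a covariate, added after seeing the data, they were -1.79, -1.43, -1.28, -1.17 and -1.18. The mean leukocyte level was itself higher in the Zelnorm libraries, so this covariate and the treatment overlap and these values are not the difference with that level removed. Without NC_5, MBZ_11 and MBZ_15 together, or with either covariate, none of the 5 passed the edgeR threshold. The smallest adjusted p of these 3 fits was 0.0568 (edgeR, Hbb-bs with the leukocyte covariate).

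**Figure D5:**
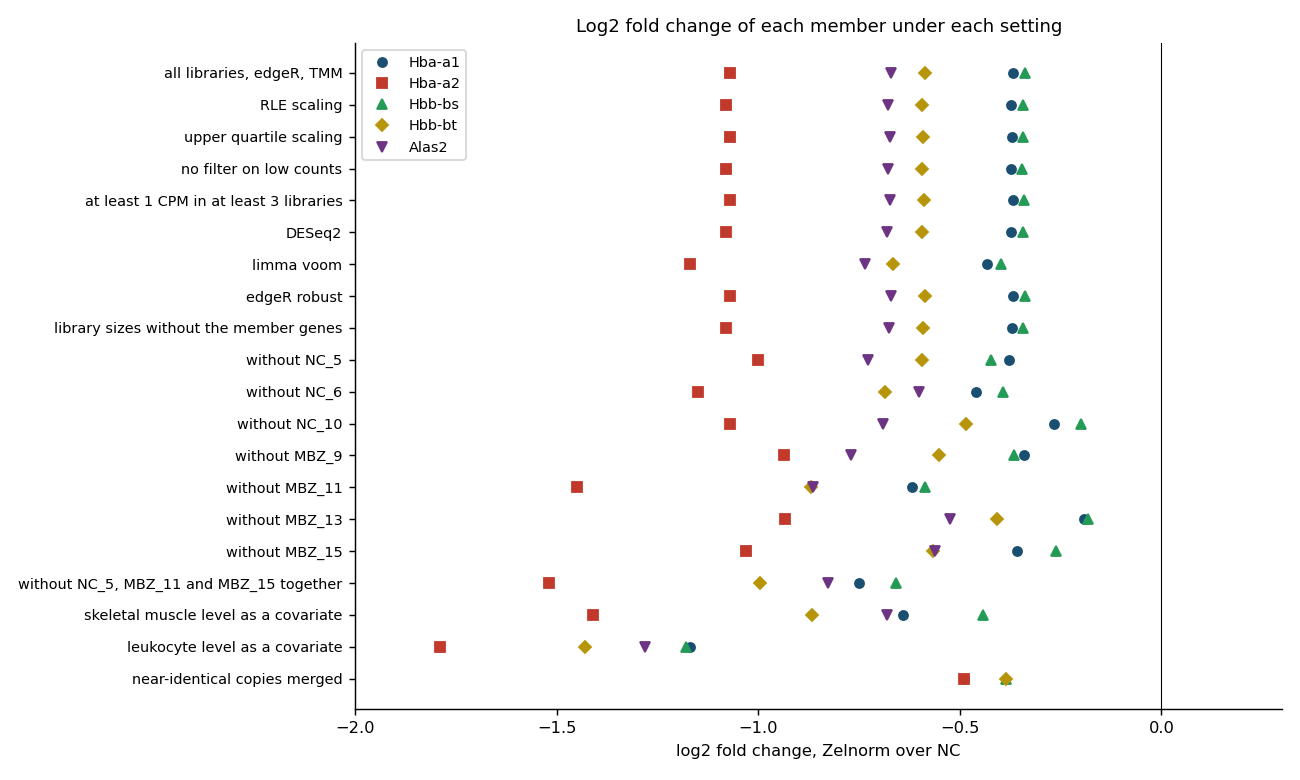
Log2 fold change of Zelnorm over NC for each member (symbols) under each setting (rows), with 0 as a vertical line. All points lie below 0, from -1.79 for Hba-a2 with the leukocyte covariate to -0.18 for Hbb-bs without MBZ_13. In the row of merged copies, both genes of a pair carry the value of their summed counts.

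Finally, genes whose level followed that of haemoglobin were sought among 12639 other tested genes. Pearson correlation of log2 CPM with the summed haemoglobin rows over the 7 libraries was highest for Yeats4 (0.977, Spearman 0.964), Rab4a (0.975, 0.857), Zfp185 (0.97, 0.964), Nphp4 (0.96, 0.929), Prr14 (0.95, 0.964) and Slc45a4 (0.949, 0.964). In all, 24 genes had a Pearson value over 0.9, and the strongest negative value, -0.99, was larger in size than any of these. Without MBZ_13 and MBZ_15, the libraries farthest from the median haemoglobin level, Pearson values were 0.925, 0.883, 0.909, 0.896, 0.855 and 0.882 over 5 libraries. These genes were picked for the correlation, so no p is given. None of them is on the erythroid lists, and in most the level itself varied little, as for Yeats4, which ranged from 32.3 CPM in MBZ_13 to 38.0 in NC_10. Zfp185 was scarce, between 0.394 and 1.11 CPM.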

How the data were processed

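Messenger RNA of 7 tumours (3 NC, 4 Zelnorm) was measured. Per the labels' protocols, the TruSeq Stranded mRNA kit was used on RNA extracted in TRIzol. The authors deposited raw read counts per gene in 1 matrix. The submitters' processing notes name HISAT2, HTSeq, Trimmomatic, Cufflinks and DESeq, and the builds GRCm38 and GRCh38. Versions, strand setting, annotation release and the treatment of reads that align to several places are not given in these sources.

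Columns were assigned to groups by name only. The members and lists were chosen with earlier results of these data known. Genes kept by filterByExpr (12997) were scaled by TMM (factors 0.986 to 1.01) and compared with edgeR 4.0.16 in R 4.3.3 (quasi-likelihood test, Benjamini-Hochberg over all genes, threshold 0.05). SE values were derived from the F statistic, and 95% intervals from the SE and the moderated degrees of freedom. Log2 CPM for correlations used a prior count of 2. DESeq2 1.42.0, limma 3.58.1 (voom), other scalings and filters, covariates and leaving out libraries were alternatives.

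Besides the members, the 4 most abundant tested genes of each erythroid list and the 6 genes most correlated with haemoglobin were named by rule; the rule also chose genes of the other marker lists, of which only list values are printed. A few genes of the lists are not reported here. No library copied another (chi-square per degree of freedom 6.53 to 20.9 in 21 pairs, for genes whose mean count was 10 or more). Transcript comparisons used Biopython 1.88 and figures matplotlib 3.10.9 in Python 3.11.15.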

Additional observations from a re-analysis of the deposited data

How the results depend on the processing

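The log2 fold change of each member stayed below 0 in all 19 alternatives (18 for Alas2). With the copies of each pair added into 1 row, it was -0.49 for alpha-globin and -0.39 for beta-globin. In fits of single rows it ran from -1.17 to -0.19 for Hba-a1, -1.79 to -0.93 for Hba-a2, -1.18 to -0.18 for Hbb-bs, -1.43 to -0.41 for Hbb-bt and -1.28 to -0.53 for Alas2. Leaving out single libraries gave ranges of -0.62 to -0.19, -1.45 to -0.93, -0.59 to -0.18, -0.87 to -0.41 and -0.86 to -0.53. The number of members called was 0 in all fits except DESeq2, where it was 1 (Hba-a2, -1.08), and leaving out single libraries, where it ran from 0 to 1 (Hba-a2 without MBZ_11). No alternative normalization moved the median of all genes by more than 0.01.

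Among other named genes some small values changed sign, and the cause was not tested. Fech (0.0014) was -0.0044 with RLE scaling, -0.0019 with upper quartile scaling, -0.0050 without a filter, -0.00061 with the 1 CPM filter, -0.0065 in DESeq2 and -0.0029 with library sizes that leave out the members. Without NC_5, MBZ_11 and MBZ_15 together, Fech was -0.0029, Tmem14c 6.1e-05, Alas1 0.076, Tfrc 0.043 and Ftl1 -0.0057. With the leukocyte covariate Tfrc was 0.11 and Ftl1 -0.052. With single libraries left out, Fech ran from -0.0311 to 0.0362, Fth1 from -0.0722 to 0.0384, Cygb from -0.309 to 0.0838 and Slc2a1 from -0.174 to 0.0154. No paired analysis was possible because no column name holds a replicate number from the titles.

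With 3 and 4 libraries and a common biological coefficient of variation of 0.111, the members' own spread (0.207 to 0.249) limits the precision more than their counts do. The exact permutation tests could not go below 0.0286.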
